A study of Mus musculus with 6 samples.

Results

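The genes described here belong to the NF-kappaB pathway and its chemokine output in the jejunal epithelium of mice carrying an inducible Musashi transgene. A list of 42 genes was read by annotated symbol, each through the probe set that read highest on average in the 6 arrays. Of these, 40 were measured among 19933 genes in all, each by 1 probe set. No probe set in the table was named for the subunit gene Nfkb1 or the flagellin receptor gene Tlr5, which were not analysed here. No filter on low values was applied, so all 40 entered the test.

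RNA came from preparations of the whole epithelial cell fraction of the jejunum (the middle part of the small intestine), with 1 Affymetrix Gene 1.0 ST array per sample. The 3 control samples came from mice of genotype R26-M2rtTA, in which the doxycycline-dependent transactivator M2rtTA sits at the broadly active Rosa26 locus. The genotype given for the 3 samples labelled transgenic is TRE-MSI2::R26-M2rtTA, which names the same transactivator with an MSI2 transgene under its tetracycline-responsive promoter. All mice, controls included, drank doxycycline for 24 hours before isolation. The Rosa26 locus is not restricted to epithelium, and the labels give no age or strain. Musashi proteins bind messenger RNAs and alter their translation or stability. The comparison asks how transcripts of the epithelium differ after 24 hours of induction.

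NF-kappaB is a family of dimeric transcription factors held in the cytoplasm by inhibitory IkappaB proteins. In the canonical arm, Toll-like, interleukin 1 and tumour necrosis factor receptors act through adaptors and ubiquitin ligases on the IkappaB kinase complex, IkappaB is degraded, and RelA or c-Rel dimers enter the nucleus. In the non-canonical arm, receptors such as the lymphotoxin beta receptor lead to processing of the Nfkb2 product p100, which frees RelB dimers. Both arms induce chemokines, adhesion molecules and the pathway's own inhibitors, and gut epithelium uses them to answer microbes and to draw in leukocytes.

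The labels were checked first. The arrays labelled transgenic had Msi1 values of 12.82 to 13.53 on the log2 scale against 7.20 to 7.97 in the controls, a 50.7-fold rise (limma, adjusted p = 0.000818). Msi2, the gene that the genotype names, did not pass (log2 difference 1.03 ± 0.55, SE; adjusted p = 0.257). It did not separate the arrays by label, since control replicate 1 had 11.30, inside the range of 10.58 to 11.44 in the arrays labelled transgenic, while control replicates 2 and 3 had 9.53 and 9.32. Every direction below is therefore between arrays labelled transgenic and arrays labelled control. Control replicate 1 also stood apart from the other controls over all probe sets (correlations of 0.981 and 0.982, against 0.996 between control replicates 2 and 3). The control animals were 2 females (replicates 1 and 3) and 1 male, and the transgenic ones 1 female (replicate 3) and 2 males, so replicate number 1 joins a female control and a male transgenic animal. Array medians lay between 6.42 and 6.46. Of 8 epithelial markers, Cdh1 and Krt18 were higher and Vil1 was lower, with log2 differences of 0.32, 1.47 and -0.80. The list's mean level was 12.55 to 12.71 in the transgenic arrays and 12.40 to 12.54 in the controls. The other 5 did not pass, and Epcam had group means of 12.77 in the controls and 12.74 in the transgenic arrays. Of 11 lymphocyte markers, 10 were lower in the transgenic arrays, where the list's mean level was 6.22 to 7.15 against 8.15 to 8.66 in the controls. In these bulk samples, fewer cells of a type and less RNA per cell cannot be told apart. Of 8 neutrophil markers 3 were higher (Ly6g, S100a9 and Cxcr2) and none lower, with a list mean of 6.37 to 6.62 against 5.07 to 5.14. The Cxcr2 means of 4.22 and 5.05 both lay in the background range given below. The granule genes Mpo and Elane had means of 5.39 and 5.62 in the transgenic arrays and 5.44 and 5.52 in the controls. None of 9 macrophage and dendritic cell markers passed the test (list means of 6.51 to 6.80 against 6.42 to 6.73).

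The members moved in both directions. In the transgenic arrays the canonical subunit genes Rela and Rel and the IkappaB family genes Nfkbia and Nfkbiz were higher. So were the adaptor gene Myd88, the target genes Tnfaip2 and Icam1 and the chemokine gene Cxcl1. The double-stranded RNA receptor gene Tlr3 and the chemokine gene Cxcl11 were lower. These 10 of 40 members (25.0%) passed limma's test at a Benjamini-Hochberg adjusted p under 0.05 over all genes, as did 18.6% of all 19933 genes. The 8 higher members were 20% of those measured, against 8.97% of all genes, and the 2 lower ones 5.0%, against 9.65%. In a fit of only the genes with a mean log2 value of at least 6, 34.5% of 29 members passed, against 31.4% of 12041 genes. There 27.6% of the members were higher and 6.9% lower, against 15% and 16.4% of the genes. The median log2 difference was 0.18 over the members and 0.02 over all genes. The members and the lists below were chosen with earlier results of these data known. Their shares are therefore descriptive and cannot test for an excess. In 15 members (37.5%) the groups did not overlap, as in 37.0% of all genes. With the replicate number as a block, 17 members passed (11 higher and 6 lower, 42.5%), against 25.8% of all genes, of which 12.7% were higher and 13.1% lower. Without control replicate 1, 9 were higher and 6 lower (37.5%), against 27.8% of all genes. The number of higher members was 3 without control replicate 2 or control replicate 3, and 4 without transgenic replicate 1 or transgenic replicate 3. That is 7.5% to 10% of the members, where 2.39% to 3.31% of all genes were higher in the same fits. The number of lower members was 1 without any of control replicates 2 and 3 and transgenic replicates 1, 2 and 3, and 1 when sex was a block. That is 2.5% of the members, where 2.39% to 9.49% of all genes were lower. Tlr3, Rela, Nfkbia and Icam1 kept their call with each of the 6 arrays left out in turn.

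**Figure D1:**
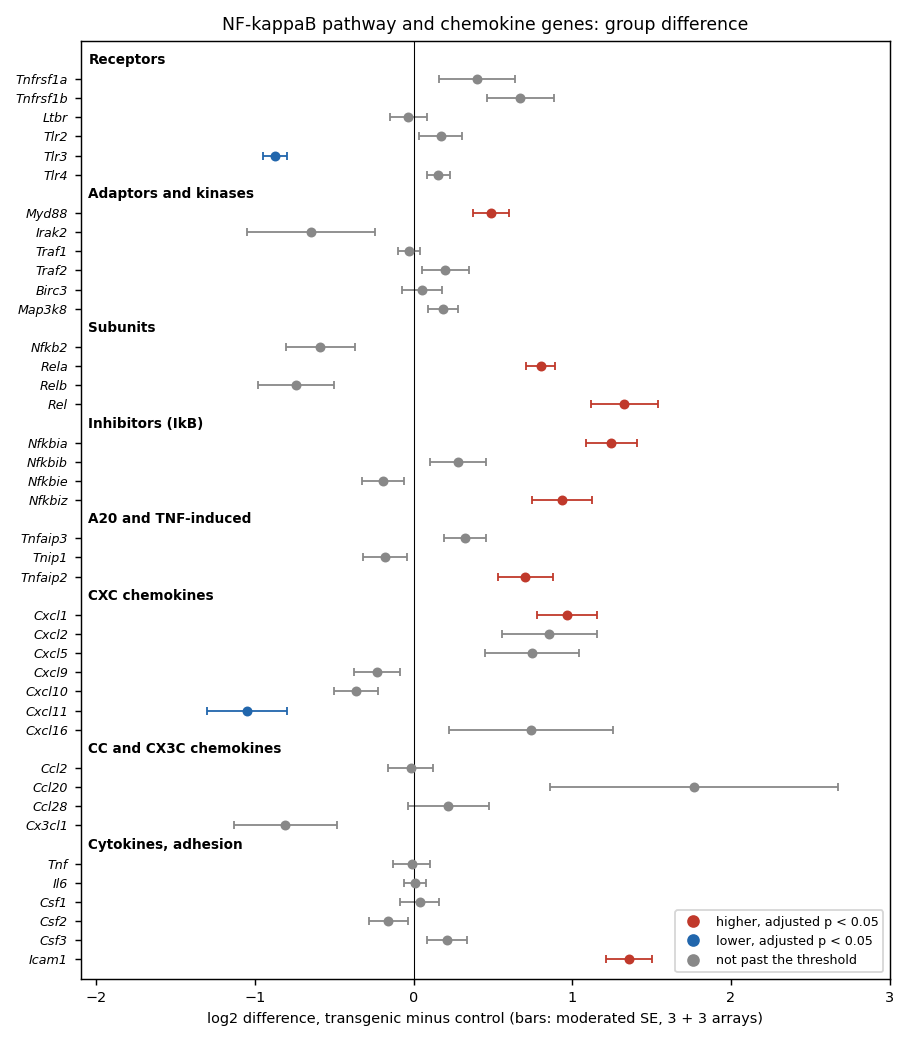
Log2 difference (transgenic minus control) of the 40 measured members, ordered by role; points are limma estimates from 3 + 3 arrays and bars their moderated standard errors. The 8 red points are the members that were higher and the 2 blue points those that were lower; Ccl20 has the widest bar, with a standard error of 0.91.

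The sequence before the start of the genes was examined, because kappaB sites in promoters are what these factors bind. RefSeq's promoter table (GRCm38.p6) held 31 of the 40 members. The kappaB consensus was taken as GGGRNWYYCC (R is A or G, W is A or T, Y is C or T, N is any base), with no mismatch allowed. A match to the kappaB consensus, searched on both strands in the 250 bases before the start, was found in 14 of the 31 (45.2%), in 4.46% of all 27025 genes of the table and in 3.90% of its 32851 promoters. Many members are on the list as textbook kappaB targets, so a high share follows from the choice of genes. Among the members the consensus was found in 4 of the 8 past the threshold (50%) and in 10 of the other 23 (43.5%). A match is a description of the letters and not a measured site. Below, 6 stretches of 250 bases are shown, each 5′ to 3′ on the gene's strand and ending at the base before the start, with the consensus matches in capitals. All 6 hold a match, so they do not stand for the members at large. Nfkbia, Rel and Cxcl1 were higher and Tlr3 was lower. Nfkb2 (the first of its 3 promoters) belongs to the non-canonical arm, and the probe set of Il6 stayed at background. Rela, Icam1, Tnfaip2 and Myd88 were higher too, and no match was found in the 250 bases before their starts. Near matches and sites farther away were not searched.
Nfkbia, chr12:55492648-55492897, minus strand: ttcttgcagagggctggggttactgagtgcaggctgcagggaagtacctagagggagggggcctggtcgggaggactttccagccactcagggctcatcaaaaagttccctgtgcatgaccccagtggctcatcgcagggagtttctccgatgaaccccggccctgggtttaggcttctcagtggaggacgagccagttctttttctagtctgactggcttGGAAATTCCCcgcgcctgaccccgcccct
Rel, chr11:23770970-23771219, minus strand: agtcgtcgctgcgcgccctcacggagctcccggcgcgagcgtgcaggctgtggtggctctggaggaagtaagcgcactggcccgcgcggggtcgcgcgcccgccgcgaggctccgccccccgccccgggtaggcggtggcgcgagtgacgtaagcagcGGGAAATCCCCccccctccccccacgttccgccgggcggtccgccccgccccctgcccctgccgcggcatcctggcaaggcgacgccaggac
Nfkb2, chr19:46304487-46304736, plus strand: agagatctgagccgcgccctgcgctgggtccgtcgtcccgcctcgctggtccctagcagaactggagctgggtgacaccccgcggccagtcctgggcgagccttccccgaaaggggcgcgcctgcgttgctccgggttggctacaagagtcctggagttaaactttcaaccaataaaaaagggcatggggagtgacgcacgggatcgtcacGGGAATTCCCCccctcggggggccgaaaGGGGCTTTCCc
Cxcl1, chr5:90890995-90891244, plus strand: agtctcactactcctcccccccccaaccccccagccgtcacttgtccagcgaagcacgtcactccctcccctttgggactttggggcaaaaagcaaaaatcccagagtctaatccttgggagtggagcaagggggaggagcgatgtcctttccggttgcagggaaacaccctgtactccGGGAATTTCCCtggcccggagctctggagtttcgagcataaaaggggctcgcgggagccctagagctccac
Tlr3, chr8:45410381-45410630, minus strand: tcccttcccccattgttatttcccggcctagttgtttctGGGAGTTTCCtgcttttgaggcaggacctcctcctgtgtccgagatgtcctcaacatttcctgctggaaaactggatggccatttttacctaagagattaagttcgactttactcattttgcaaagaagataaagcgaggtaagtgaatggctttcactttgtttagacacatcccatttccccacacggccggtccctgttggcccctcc
Il6, chr5:30012864-30013113, plus strand: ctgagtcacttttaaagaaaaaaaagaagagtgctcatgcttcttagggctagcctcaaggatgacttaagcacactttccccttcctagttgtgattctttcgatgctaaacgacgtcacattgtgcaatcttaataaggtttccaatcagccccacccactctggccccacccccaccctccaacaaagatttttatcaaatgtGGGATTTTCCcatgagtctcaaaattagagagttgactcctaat
The capitals begin 29 bases before the start in Nfkbia, 92 in Rel, 71 in Cxcl1, 44 in Il6 and 211 in Tlr3. In Nfkb2 they form 2 stretches, which begin 39 and 11 bases before the start. The stretch GGGAATTTCCC of Cxcl1 was also found in Cxcl2, beginning 97 bases before its start.

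Among the subunits, both measured genes of the canonical arm were higher and both of the non-canonical arm had lower means. Rela, which encodes the transactivating subunit p65, had log2 values of 8.89, 8.76 and 8.96 in control replicates 1 to 3 and 9.69, 9.57 and 9.77 in transgenic replicates 1 to 3. The groups were far apart beside a spread of 0.10 (SD, n = 3) in each. Its log2 difference was 0.80 with a standard error of 0.09 (limma, adjusted p = 0.00557), a 1.74-fold rise. Rel, which encodes c-Rel, had 8.03, 8.17 and 8.05 in the controls and 9.69, 8.92 and 9.62 in the transgenic arrays. Transgenic replicate 2 was the lowest of its group and still above every control. Rel rose 2.51-fold (log2 difference 1.33 ± 0.21, SE; adjusted p = 0.0124). It did not pass without control replicate 2, without control replicate 3 or without transgenic replicate 3 (adjusted p of 0.0528, 0.0592 and 0.0565).

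Relb, which encodes the partner of processed p100, had values of 7.40, 8.20 and 8.26 in the controls and 7.06, 7.35 and 7.22 in the transgenic arrays. The groups did not overlap, but control replicate 1 lay within 0.1 of the transgenic arrays' highest value. The log2 difference of -0.74 ± 0.24 (SE) did not pass in limma (adjusted p = 0.0828). It passed with the replicate number as a block (adjusted p = 0.0283) and, at -1.02, without control replicate 1 (adjusted p = 0.00396). Nfkb2, the gene of p100, had 7.81, 8.54 and 8.44 in the controls and 7.59, 7.91 and 7.52 in the transgenic arrays, where replicate 2 lay above control replicate 1. Its log2 difference was -0.59 ± 0.22 (SE; adjusted p = 0.114), with adjusted p = 0.0480 under the block and 0.0116 without control replicate 1, where the log2 difference was -0.81. Within the same-numbered pairs Relb differed by -0.34, -0.85 and -1.04 and Nfkb2 by -0.22, -0.63 and -0.92.

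Of the 4 IkappaB genes, Nfkbia and Nfkbiz rose and the others did not pass. Nfkbia encodes IkappaB-alpha, the inhibitor that NF-kappaB itself induces. It had log2 values of 10.12, 9.96 and 10.05 in the controls and 11.10, 11.12 and 11.64 in the transgenic arrays. Every transgenic array was above every control. Nfkbia rose 2.37-fold (log2 difference 1.25 ± 0.16, SE; limma, adjusted p = 0.00738). Nfkbiz encodes IkappaB-zeta, an atypical nuclear family member that acts as a cofactor at a subset of targets. Its values were 9.06, 9.17 and 9.37 in the controls and 10.17, 9.77 and 10.46 in the transgenic arrays, without overlap. It rose 1.91-fold (log2 difference 0.93 ± 0.19, SE; adjusted p = 0.0237), but not past the threshold without control replicate 2, control replicate 3, transgenic replicate 1 or transgenic replicate 3 (adjusted p of 0.0888, 0.0680, 0.0806 and 0.0700). The genes of the other classical inhibitors, Nfkbib and Nfkbie, had log2 differences of 0.28 ± 0.18 and -0.19 ± 0.13 (SE). Neither passed (adjusted p = 0.349 and 0.372), and their groups overlapped.

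**Figure D2:**
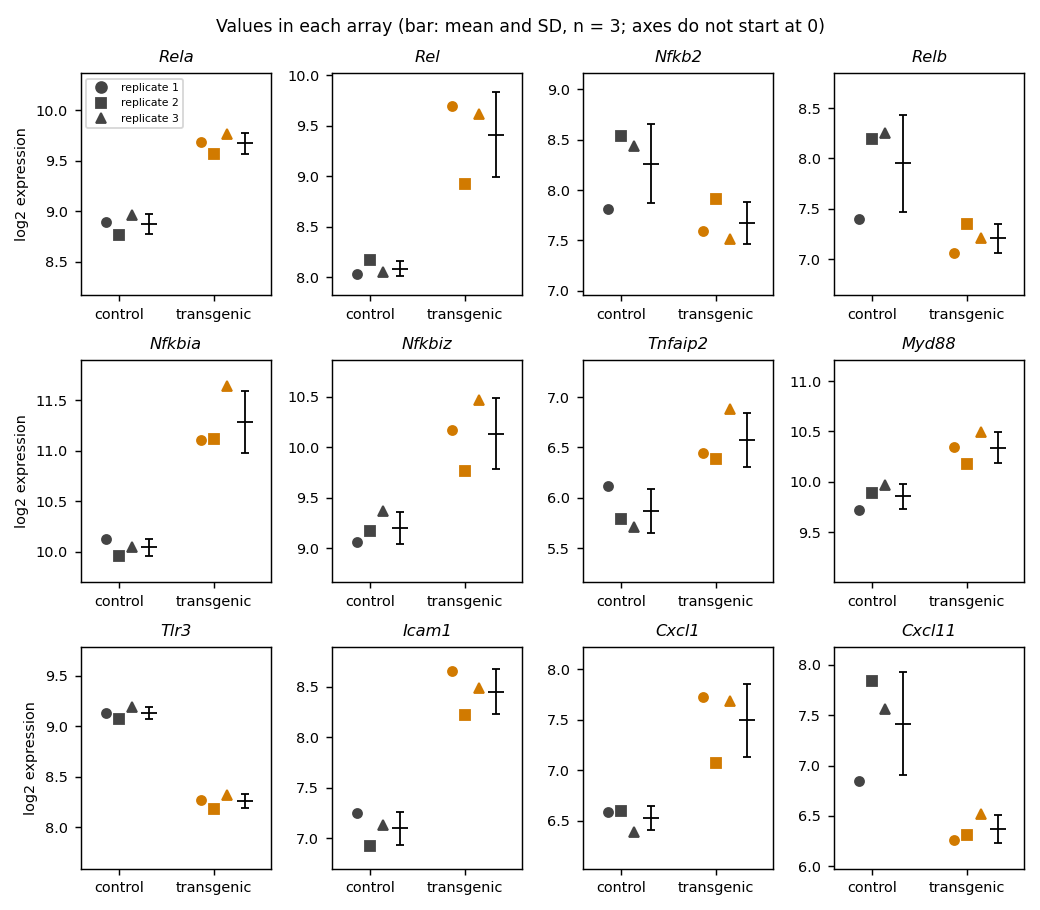
Log2 expression in each array of the 10 members past the threshold and of Nfkb2 and Relb; circles, squares and triangles are replicates 1, 2 and 3, and bars give the mean and SD of 3 arrays. All panels span at least 2.2 log2 units and none starts at 0. In Relb, Nfkb2 and Cxcl11 control replicate 1 (circle) lies nearest to the transgenic arrays.

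Of the feedback and target genes grouped with tumour necrosis factor, only Tnfaip2 passed. Tnfaip2, an early TNF-induced gene, had 6.11, 5.79 and 5.71 in the controls and 6.45, 6.39 and 6.88 in the transgenic arrays. Transgenic replicate 3 was the highest and the groups did not overlap. The log2 difference was 0.70 ± 0.17 (SE; limma, adjusted p = 0.0389). Leaving out control replicate 2 or 3 or transgenic replicate 1 or 3 ended the call (adjusted p of 0.131, 0.134, 0.0870 and 0.0996). Tnfaip3 encodes A20, a ubiquitin-editing enzyme that ends signalling. Its log2 difference was 0.32 ± 0.13 (SE; adjusted p = 0.153), and its values in the same-numbered pairs differed by 0.16, 0.16 and 0.64. With array weights it passed, at 0.43 (adjusted p = 0.0266). Tnip1, whose product binds A20, had -0.18 ± 0.14 (SE; adjusted p = 0.438).

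Receptor genes gave 1 fall and no rise. Tlr3, the endosomal receptor for double-stranded RNA, had 9.13, 9.07 and 9.19 in the controls and 8.27, 8.18 and 8.32 in the transgenic arrays. The pairs differed by -0.86, -0.89 and -0.87, so all 3 differences lay within a few hundredths of each other. Its log2 difference was -0.87 ± 0.08 (SE; limma, adjusted p = 0.00286), a 1.83-fold fall. The TNF receptor genes had higher means. Tnfrsf1b, which encodes the inducible type 2 receptor, had 8.31, 7.65 and 7.84 in the controls and 8.90, 8.40 and 8.52 in the transgenic arrays. The groups were separated by less than 0.1, and the log2 difference of 0.67 ± 0.21 (SE) did not pass (adjusted p = 0.0745), but did under the block (adjusted p = 0.00852) and without control replicate 1 (adjusted p = 0.0167). Tnfrsf1a, the broadly expressed type 1 receptor, had 9.69, 10.33 and 10.34 in the controls and 10.14, 10.68 and 10.73 in the transgenic arrays. Replicate 1 was the lowest of both groups, and the groups overlapped. The log2 difference of 0.40 ± 0.24 (SE; adjusted p = 0.313) passed under the block, where its standard error was 0.08 (adjusted p = 0.0258). The lymphotoxin receptor gene Ltbr and the bacterial lipoprotein receptor gene Tlr2 had log2 differences of -0.03 and 0.17 (adjusted p = 0.880 and 0.460). Tlr4, the lipopolysaccharide receptor gene, had values of 4.36 to 4.60 in the 6 arrays. These lay inside the range of 4.07 to 5.06 that Xist in male and Y-linked genes in female animals showed, which is taken here as background.

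Of the adaptors and kinases, Myd88 passed. Myd88 joins Toll-like and interleukin 1 receptors to the IRAK kinases. It had 9.72, 9.88 and 9.96 in the controls and 10.34, 10.18 and 10.50 in the transgenic arrays. The groups did not overlap, and Myd88 rose 1.40-fold (log2 difference 0.48 ± 0.11, SE; limma, adjusted p = 0.0340). It lost its call without control replicate 2, control replicate 3, transgenic replicate 1 or transgenic replicate 3 (adjusted p of 0.105, 0.0811, 0.105 and 0.110), when sex was a block (adjusted p = 0.0624) and with an intensity trend (adjusted p = 0.0587). Irak2, a kinase of the same receptor complex, had 9.24, 10.38 and 10.40 in the controls and 8.77, 9.82 and 9.49 in the transgenic arrays. Replicate 1 was the lowest array of both groups, which overlapped. Its log2 difference of -0.65 ± 0.40 (SE; adjusted p = 0.331) passed under the block (SE 0.12, adjusted p = 0.0192), and the pairs differed by -0.47, -0.56 and -0.91. Traf1, Traf2, the ubiquitin ligase gene Birc3 and the kinase gene Map3k8 had log2 differences between -0.03 and 0.20, and none passed (adjusted p of 0.246 to 0.823). Traf1 lay at the upper edge of the background range, with group means of 5.09 and 5.06 and 2 arrays inside it.

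The CXC chemokines moved in both directions. Cxcl1, a ligand of CXCR2 that attracts neutrophils, had 6.591, 6.600 and 6.389 in the controls and 7.72, 7.08 and 7.68 in the transgenic arrays. All transgenic arrays were above the controls. Cxcl1 rose 1.96-fold (log2 difference 0.97 ± 0.19, SE; limma, adjusted p = 0.0212). The call ended when control replicate 2 or 3 or transgenic replicate 1 or 3 was left out (adjusted p of 0.0742, 0.0871, 0.0706 and 0.0847) and when sex was a block (adjusted p = 0.0514). The related gene Cxcl2 had 5.15, 4.99 and 4.70 in the controls and 6.48, 5.45 and 5.47 in the transgenic arrays. Its 2 lowest control values lay in the background range, so the size of the difference, 0.85 ± 0.30 (SE), is uncertain. It did not pass (adjusted p = 0.103), but did under the block (adjusted p = 0.0294). Cxcl5, of the same receptor group, had 4.29 to 4.57 in the controls, all in the background range, and 5.32, 5.70 and 4.51 in the transgenic arrays. It did not pass (adjusted p = 0.137), and without transgenic replicate 3 it did (adjusted p = 0.0327). The neutrophil marker list given above had a higher mean in the transgenic arrays. Of its 8 genes 3 passed and 2 had an absolute log2 difference of at least 1, while the list's median was 0.38. Its part in these values was not tested.

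The CXCR3 ligands, which interferon induces and which attract T cells, had lower means. Cxcl11 had 6.85, 7.84 and 7.56 in the controls and 6.26, 6.32 and 6.52 in the transgenic arrays. Control replicate 1 was the lowest control, still above every transgenic array. Cxcl11 fell 2.07-fold (log2 difference -1.05 ± 0.25, SE; limma, adjusted p = 0.0374). Without control replicate 1 the log2 difference was -1.33 (adjusted p = 0.00336). It did not hold without control replicate 2 or 3 or transgenic replicate 1, 2 or 3 (adjusted p of 0.103, 0.131, 0.116, 0.0756 and 0.100), nor when sex was a block (adjusted p = 0.0687). Cxcl10 and Cxcl9 had log2 differences of -0.36 ± 0.14 and -0.23 ± 0.14 (SE) and did not pass (adjusted p = 0.120 and 0.329). The lymphocyte marker list fell in the same arrays, and its part in these values was not tested. Cxcl16, a transmembrane chemokine, had 6.47, 8.61 and 7.86 in the controls and 8.18 to 8.58 in the transgenic arrays. Its log2 difference was 0.74 with a standard error of 0.52, and 0.15 without control replicate 1.

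No CC or CX3C chemokine passed. Ccl20, the epithelial ligand of CCR6, had the largest log2 difference of all members, 1.76, and the largest standard error, 0.91 (adjusted p = 0.239). Its values were 8.07, 7.21 and 6.85 in the controls and 8.23, 7.92 and 11.26 in the transgenic arrays. A high value in transgenic replicate 3 made up most of the difference, since the pairs differed by 0.16, 0.71 and 4.42. Without that array the log2 difference was 0.70. Cx3cl1 encodes fractalkine, a membrane-bound chemokine. It had 9.50, 10.40 and 10.33 in the controls and 8.75, 9.68 and 9.36 in the transgenic arrays, with replicate 1 lowest in both groups. The log2 difference of -0.81 ± 0.33 (SE; limma, adjusted p = 0.143) passed under the block (SE 0.09, adjusted p = 0.00725) and, at -1.10, without control replicate 1 (adjusted p = 0.0336). Ccl28, a mucosal chemokine for plasma cells, had a log2 difference of 0.22 ± 0.25 (SE; adjusted p = 0.624). Ccl2, the monocyte chemokine gene, had -0.02 ± 0.14 (SE; adjusted p = 0.947), and 4 of its 6 values were in the background range.

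Among the genes of cytokines and adhesion only Icam1 passed. Icam1, the leukocyte adhesion molecule and a classical NF-kappaB target, had 7.25, 6.92 and 7.13 in the controls and 8.65, 8.22 and 8.49 in the transgenic arrays. The 3 pairs differed by 1.41, 1.30 and 1.36. Icam1 rose 2.56-fold (log2 difference 1.36 ± 0.14, SE; limma, adjusted p = 0.00459). The cytokine genes showed no such difference. Tnf had values of 5.76 to 6.08 over the 6 arrays, and its log2 difference was -0.01 ± 0.12 (SE; adjusted p = 0.962). Il6 lay at 3.66 to 3.78 in all arrays, below the background range. The colony-stimulating factor genes Csf1, Csf2 and Csf3 had log2 differences of 0.04, -0.16 and 0.21 (adjusted p of 0.875, 0.439 and 0.317). Csf1 and Csf2 had group means of 5.12 to 5.31, close above the background range, and 1 array each inside it. A lack of difference in these dim genes therefore says little. Csf2 passed without control replicate 1 (adjusted p = 0.0374), at -0.29.

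**Figure D3:**
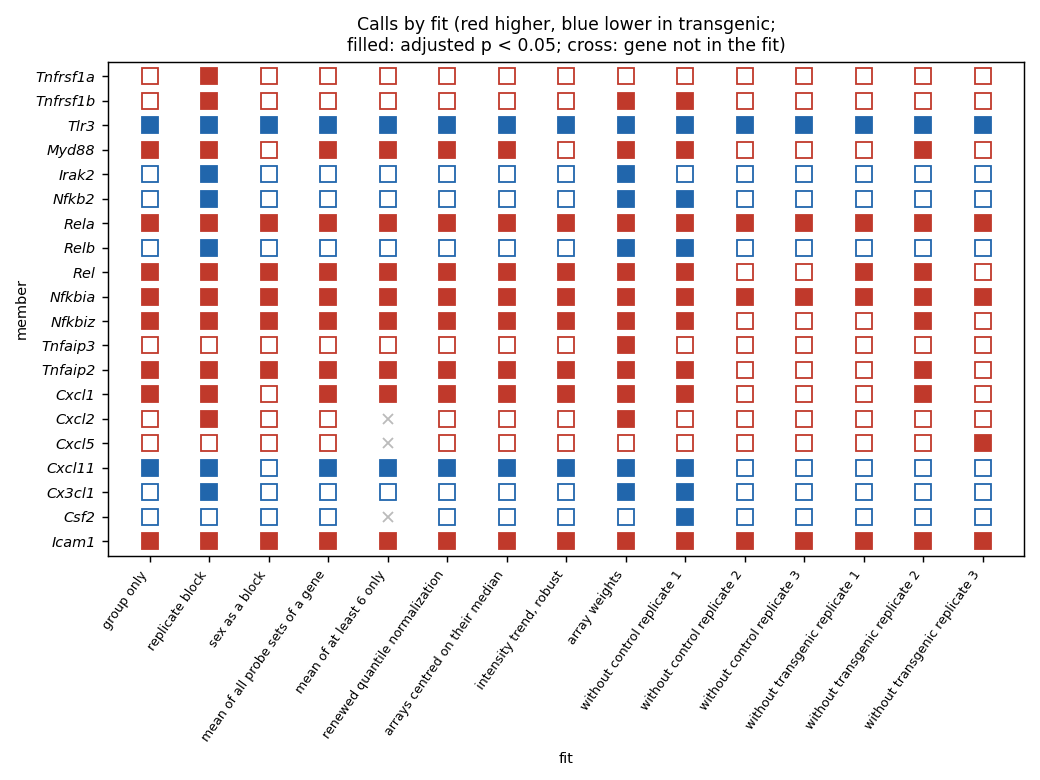
Calls of the 20 members that passed in at least 1 fit (rows) under each fit (columns); red squares are higher and blue ones lower in the transgenic arrays, filled where the adjusted p was under 0.05, and a cross marks a gene outside that fit. Tlr3, Rela, Nfkbia and Icam1 are filled in every column; Relb, Nfkb2 and Cx3cl1 are filled under the replicate block, with array weights and without control replicate 1.

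Other signalling genes of the pathway were read from a list of 61, of which 54 were measured. The list was chosen with earlier results of these data known, so its shares are descriptive. In this list 14 genes were higher and 11 lower in limma (46.3%, against 18.6% of all genes), with a median log2 difference of 0.06. In the fit of only the genes with a mean of at least 6, 47.8% of its 46 genes passed, against 31.4% of all. The 4 risers with the lowest p were Tirap, Traf6, Tab2 and Tnfrsf12a. Tirap, which bridges Toll-like receptors to MyD88, rose by 1.26 ± 0.13 (SE), from 8.56 to 9.82. Traf6, the ubiquitin ligase below the IRAK kinases, rose by 1.41 ± 0.15, from 9.24 to 10.65. Tab2, a ubiquitin-binding partner of the kinase TAK1, rose by 1.11 ± 0.09, from 11.02 to 12.13. Tnfrsf12a, the receptor for TWEAK, rose by 3.28 ± 0.17, from 7.96 to 11.25. These 4 had limma adjusted p of 0.00434, 0.00500, 0.00248 and 0.00101. Among the related adaptor and kinase genes, Tab3 and Map3k7 also passed as higher, at 0.89 ± 0.18 and 0.34 ± 0.09 (SE; limma, adjusted p = 0.0218 and 0.0486). Tab3 lost its call without control replicate 2 or transgenic replicates 1 or 3, and Map3k7 without any 1 array other than control replicate 1. Neither passed when sex was a block (adjusted p = 0.0546 and 0.103). The related genes that did not pass without a block were not all positive. Irak1 was at -0.08, Irak3 at 0.13, Ticam1 at -0.35, Ticam2 at 0.01 and Tab1 at -0.05 (adjusted p of 0.573, 0.591, 0.436, 0.974 and 0.858).

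All 3 genes of the linear ubiquitin chain assembly complex, which builds the chains that recruit the IkappaB kinase complex, were lower. Rnf31, its catalytic subunit, had a log2 difference of -0.96 ± 0.11 (SE; limma, adjusted p = 0.00502), with group means of 9.26 ± 0.13 and 8.30 ± 0.13 (SD, n = 3). Rbck1 had -0.65 ± 0.09 (adjusted p = 0.00923). The third, Sharpin, named after its value was seen, had -1.07 ± 0.24 (adjusted p = 0.0317). Ikbke, an IkappaB kinase-related kinase best known in interferon induction, had -2.27 ± 0.35 (adjusted p = 0.0120), and Nod1, a cytosolic sensor of peptidoglycan, -0.48 ± 0.08 (adjusted p = 0.0123). Of the 25 genes, Tnfrsf12a, Tab2, Tirap, Traf6, Rnf31 and Rbck1 kept their call with each array left out in turn. Sharpin lost it without control replicates 2 or 3 or transgenic replicates 1 or 3 (adjusted p up to 0.117), Ikbke without control replicates 2 or 3 or transgenic replicate 3 (up to 0.0573), and Nod1 without control replicate 2 or transgenic replicates 1 or 3 (up to 0.0546). The counts were 4 higher and 2 lower without control replicate 2, and 8 and 3 without control replicate 3. They were 6 and 3 without transgenic replicate 1, and 5 and 3 without transgenic replicate 3. In the same order these were 11.1%, 20.4%, 16.7% and 14.8% of the list, against 4.9%, 4.78%, 6.87% and 5.39% of all genes. When sex was a block the counts were 8 and 6 (25.9%, against 10.8% of all genes).

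**Figure D4:**
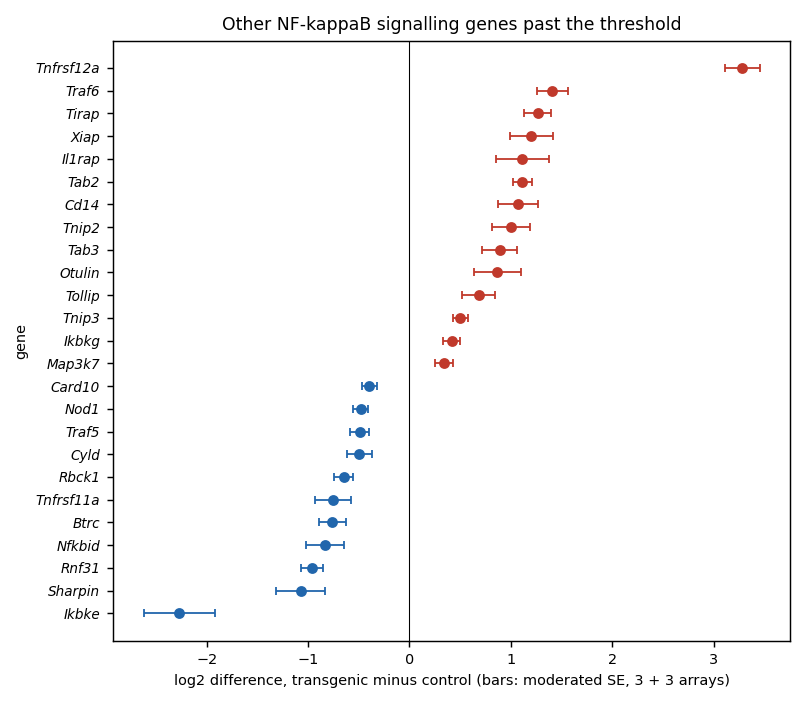
Log2 difference (transgenic minus control) of the 25 other signalling genes past the threshold, sorted by size; points are limma estimates from 3 + 3 arrays and bars their moderated standard errors. The 14 red genes range up to 3.28 in Tnfrsf12a and the 11 blue genes down to -2.27 in Ikbke.

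Of 25 measured chemokine genes outside the member list, 1 was higher and 4 lower (20%, against 18.6% of all genes). When sex was a block 1 was higher and 1 lower (8%, against 10.8% of all genes). Only 8 of the 25 had a mean of at least 6. In the fit of such genes 12.5% of the 8 were higher and 50% lower, against 15% and 16.4% of all genes in that fit. Ccl17, a CCR4 ligand gene, rose by 0.88 ± 0.13 (SE; limma, adjusted p = 0.0102). Ccl6 had a log2 difference of -2.02 ± 0.22 (adjusted p = 0.00477). Ccl5, a chemokine that cytotoxic lymphocytes make, had -1.62 ± 0.34 (adjusted p = 0.0264), and Ccl3 had -1.35 ± 0.35 (adjusted p = 0.0463). Ccl25, the small intestinal epithelial ligand of CCR9, had -2.60 ± 0.58 (adjusted p = 0.0307). Of 21 chemokine receptor genes 1 was higher and 2 lower (14.3%, against 18.6% of all genes). Only 5 of them had a mean of at least 6, of which 40% passed in the fit of such genes, against 31.4% of all. Ccr9 was lower, at -1.60 ± 0.28 (adjusted p = 0.0167), as was Cxcr6, the receptor gene of the Cxcl16 product, at -0.72 ± 0.15 (adjusted p = 0.0257). Cxcr2, the receptor gene of the Cxcl1 product, passed as higher, at 0.83 ± 0.15 (adjusted p = 0.0186). Its values of 4.15, 4.22 and 4.29 in the controls and 4.83 and 4.94 in transgenic replicates 2 and 3 lay in the background range, and only the 5.38 of transgenic replicate 1 was above it, so the size is uncertain. Under the replicate block 4 receptor genes passed (19%, against 25.8% of all genes), 2 of them higher. Ccl5, Ccl3, Ccr9 and Cxcr6 are lymphocyte transcripts as well, and the lymphocyte markers fell in the same arrays. Their part was not tested. Ccl17 and Ccl6 kept their call with each array left out. Ccl5, Ccl25, Ccr9 and Cxcr6 lost it without control replicates 2 or 3 or transgenic replicates 1 or 3 (adjusted p up to 0.101, 0.114, 0.0723 and 0.0989). Ccl3 lost it without any 1 array other than control replicate 1 (up to 0.143), and Cxcr2 without control replicates 2 or 3 or transgenic replicate 3 (up to 0.0734).

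A last list held 30 further genes described as kappaB targets, of which 28 were measured. In it 2 genes were higher and 3 lower, 17.9% against 18.6% of all genes, and the median log2 difference was 0.00197. Under the replicate block 2 were higher and 7 lower, and without control replicate 1 the counts were 4 and 5. Either way 32.1% of the list passed, against 25.8% and 27.8% of all genes. In the fit of only the genes with a mean of at least 6, 35.7% of its 14 genes passed, against 31.4% of all. Lcn2, the siderophore-binding lipocalin, rose from 7.18 to 13.28 (log2 difference 6.11 ± 0.14, SE; limma, adjusted p = 6.47e-05). Ier3, an early response gene, rose by 1.96 ± 0.42 (adjusted p = 0.0265). Irf1, an interferon regulatory factor, had -1.65 ± 0.22 (adjusted p = 0.00796), Pigr, the immunoglobulin transporter, -1.30 ± 0.19 (adjusted p = 0.0109), and Tnfsf10, which encodes the death ligand TRAIL, -3.03 ± 0.78 (adjusted p = 0.0451). Lcn2 and Irf1 kept their call with each array left out. Ier3 lost it without control replicates 2 or 3 or transgenic replicates 1 or 3 (adjusted p up to 0.0914), Pigr without control replicates 2 or 3 (up to 0.0546), and Tnfsf10 without any 1 array other than transgenic replicate 2 (up to 0.137).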

How the data were processed

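The authors deposited log2 expression values, each column holding 1 of the 6 arrays. That the scale is log2 follows from the value range. Partek and RMA are named in the submitters' processing notes, with no version or setting. RMA normalizes between arrays and compresses differences of dim probe sets, and a global change in RNA amount is removed. Of 28350 probe sets 21780 named 1 gene, 1618 several and 4952 none here. Symbols were updated by gene identifier through a RefSeq table of GRCm38.p6 (21689 matched). The build behind the array annotation is not given.

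Groups were compared over all 19933 genes with limma 3.58.1 (R 4.3.3), using lmFit and eBayes with the group as sole term and two-sided tests. Errors are moderated standard errors, and the threshold was an adjusted p of 0.05. The number of arrays limits the precision. Deviations of same-numbered arrays from their group means correlated by 0.52, 0.41 and 0.13, all above 0.1. On that ground alone the number served as a block in an alternative fit and to form the same-numbered pairs. The calls come from the fit without the block. No label says what a number shares. Sex was read from Xist and Y-linked genes. The labels call the samples biological replicates.

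Values in every array are given for members past the threshold, for those with an absolute log2 difference of at least 1 and, added after the values were seen, for those past it under the block and for Cxcl5 and Cxcl16. Of the other lists the 4 genes with the lowest p in each direction are named. Sharpin and the related adaptor and kinase genes are named beyond that rule. Members and lists were chosen with earlier results of these data known. The alternatives were the replicate block, sex as a block, the mean of a gene's probe sets, a minimum mean of 6, quantile normalization repeated, arrays centred on their median, a robust intensity trend, array weights and each array left out.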

Additional observations from a re-analysis of the deposited data

How the results depend on the processing

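With the replicate block all 10 members kept their call and 7 more passed, so that 6 were lower. With array weights 6 members were lower and 3630 and 3442 of all genes were higher and lower. With sex as a block 1 member was lower, 8 and 6 other pathway genes were higher and lower, as were 1068 and 1091 of all genes. With 1 array left out, 3 to 9 members were higher and 1 to 6 lower, 4 to 14 other pathway genes were higher and 2 to 15 lower, and 476 to 2663 of all genes were higher and 476 to 2879 lower. Such fits hold fewer arrays. Without control replicate 1 all 10 members kept their call. The members' counts were the same with the mean of all probe sets, the minimum mean of 6, renewed quantile normalization and median centring, while the intensity trend lost Myd88. Members that did not pass and lay near 0 changed sign in some fits. With sex as a block Ccl2 was at 0.052, Tnf at 0.0011 and Il6 at -0.0034, and with array weights Ccl2 was at 0.099, Tnf at 0.053 and Il6 at -0.025. Il6 was at -0.0072 with median centring and Csf1 at -0.0048 with renewed quantile normalization. With 1 array left out Ltbr ranged from -0.090 to 0.072, Birc3 from -0.058 to 0.12, Ccl2 from -0.14 to 0.081, Tnf from -0.072 to 0.094, Il6 from -0.029 to 0.032 and Csf1 from -0.074 to 0.14. The cause of these changes was not tested. Tlr4 and Il6 lay in or below the background range in all arrays, so their differences are not readable.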

Other observations

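In several members the same replicate number was the lowest or the highest array of both groups. The share of all genes with such an order was not counted, so the order cannot be called particular to the members. Its cause was not tested. Replicate 1 was the lowest of both groups in Irak2, Cx3cl1, Tnfrsf1a, Nfkbib, Ltbr, Tnip1, Relb, Cxcl11 and Csf2. It was the highest of both in Tnfrsf1b, Tlr2, Cxcl2, Ccl28 and Icam1. In Nfkbia, Nfkbie, Cxcl9 and Csf1 it was the highest control and the lowest transgenic array. In Rel and Tlr4 it was the lowest control and the highest transgenic array. In Ccl28, which did not pass in any fit, replicate 2 was the lowest in both groups (9.67 in the controls and 9.84 in the transgenic arrays), and the 3 pairs differed by 0.22, 0.17 and 0.26. The standard error of Cx3cl1 was 0.33 without the block and 0.09 with it, and that of Irak2 0.40 and 0.12. By contrast the standard error of Tlr3 was 0.08 in both fits.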
